A study of Mus musculus with 6 samples.

Results

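The genes described here are 7 genes of epithelial adhesion and keratin filaments, taken by symbol from a table of 34652 genes: Cdh1, Epcam, Krt7, Krt8, Krt18, Krt19 and Met. All 7 were in the table. They were put together with the difference of Cdh1 and Epcam between the groups already known, so their levels and differences are given as a description and without a test.

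The cells were macrophages sorted from mouse cerebrospinal fluid on day 12 of tumour growth, counted from the injection of LLC-LeptoM, a leptomeningeal line of Lewis lung carcinoma. All mice carried Cx3cr1CreER and the mTmG reporter and received tamoxifen. Cells in which the Cre driven by Cx3cr1 had acted are therefore green, and Cx3cr1 is expressed by several myeloid and lymphoid cell types. Group dLAM held 3 libraries of GFP+ resident macrophages, gated as CD45+, CD11b+, F4/80+ and Ly6C-. Group mono-MΦ held 3 libraries of GFP- monocyte-macrophages, a mixture of F4/80+ cells and of F4/80 low, Ly6C+ cells that were also gated on CD45 and CD11b. No tumour-free group was analysed here, and the labels give neither the number nor the age of the mice, nor whether the 3 libraries of a group are 3 separate animals. The p-values therefore rest on library-to-library spread alone, part or all of which may be technical.

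Cdh1 encodes E-cadherin, which binds E-cadherin of a neighbouring cell and holds on to the actin cytoskeleton through catenins. Epcam encodes an adhesion glycoprotein of simple epithelia and many carcinomas. Keratins form filaments from pairs of a type I and a type II chain. Outside epithelia, mouse Langerhans cells carry E-cadherin and Epcam, and mouse macrophages exposed to interleukin-4 are known to make E-cadherin. In the meninges, carcinoma cells, choroid plexus epithelium and arachnoid barrier cells are other possible carriers of such genes.

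Values are FPKM, fragments scaled to gene length and to library size, which allow levels of different genes to be compared. The libraries held an estimated 1.23e+07 to 1.7e+07 fragments, and 10281 to 11470 genes reached 1 FPKM. Differences between groups are dLAM minus monocyte-macrophage in log2(FPKM + 1), a scale on which changes of low genes come out too small. Across 11317 tested genes, limma called 2249 higher and 1204 lower in dLAMs at an adjusted p under 0.05, together 30.5%. With quantile normalization the split was 1799 higher and 1702 lower, and the median difference of all genes moved to -0.05, against 0.06 as deposited.

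Genes of macrophages and of the sort were measured in both groups, at differing levels. Csf1r, the receptor of the macrophage growth factor, stood at 251 ± 28.9 FPKM in dLAMs and 121 ± 23 FPKM in monocyte-macrophages (SD, n = 3 each). Ptprc (CD45) ranged over 46.4 to 47.5 FPKM in dLAMs and 53.1 to 54.1 FPKM in monocyte-macrophages. Ly6c2, a gene behind the Ly6C gate, ranged over 11.5 to 15 FPKM in dLAMs and 69.2 to 124 FPKM in monocyte-macrophages.

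Among the 7 genes, Cdh1 and Epcam were far higher in dLAMs, Krt18 was higher at a low level, and Met was higher in monocyte-macrophages. Krt7, Krt8 and Krt19 stayed below 0.5 FPKM in each of the 6 libraries. The groups did not overlap for 5 genes, 3 of them higher in dLAMs (Cdh1, Epcam and Krt18) and 2 lower (Met and Krt7). Over all 22145 genes above 0 FPKM in a library the groups did not overlap for 35.7%, with 25.3% higher and 10.4% lower in dLAMs. Over the 11317 tested genes the shares were 46.2% in all, 29.3% higher and 16.9% lower. The genes were chosen on this contrast, so nothing is read from that count.

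**Figure D1:**
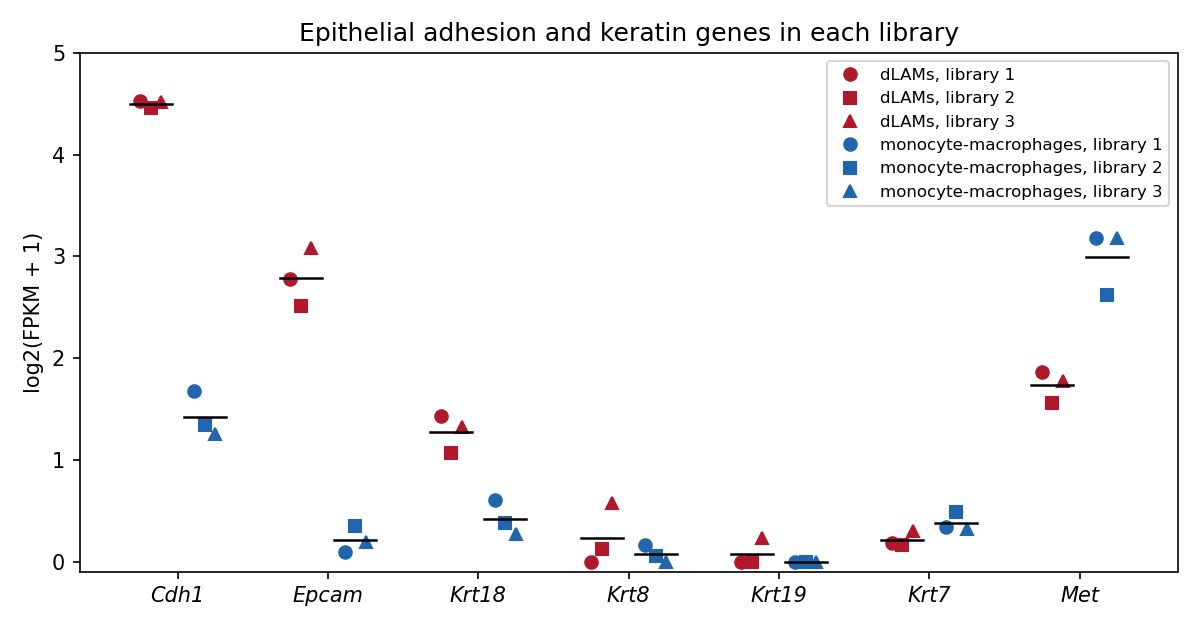
Level of the 7 genes in each library as log2(FPKM + 1), with dLAMs in red and monocyte-macrophages in blue; points are libraries and lines are group means. Cdh1, Epcam and Krt18 are higher in the 3 dLAM libraries, Met and Krt7 are lower, and Krt8 and Krt19 overlap between the groups.

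Cdh1 (GENCODE M21 ENSMUSG00000000303.12, chromosome 8, 106603351 to 106670246 on mm10, plus strand) had 22, 21 and 21.9 FPKM in dLAM libraries 1, 2 and 3, against 2.2, 1.53 and 1.39 FPKM in monocyte-macrophage libraries 1, 2 and 3. Each dLAM library was thus well above each monocyte-macrophage library. The group means were 21.6 ± 0.552 and 1.71 ± 0.437 FPKM (SD, n = 3 each), a 12.7-fold ratio and a difference of 3.08 on the log2 scale (SE 0.13). The dLAM libraries differed little among themselves, with a coefficient of variation of 2.55%, against 25.6% in monocyte-macrophages. An estimated 1183 to 1490 fragments per dLAM library and 98.2 to 138 per monocyte-macrophage library lay behind these values, so the lower level is a measured one and not a floor. Among the genes at 1 FPKM or more, Cdh1 lay at the 81.9 to 82.5 percentile in dLAMs and at the 7.08 to 18.7 percentile in monocyte-macrophages.

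Cdh1 was also the main cadherin RNA of these cells. Of 23 genes named Cdh in the table, 3 reached 1 FPKM in any library, namely Cdh1, Cdh5 and Cdh17. Cdh1 made up 84.2% to 91% of the summed FPKM of these genes in dLAMs and 50.3% to 66.5% in monocyte-macrophages. Cdh5, the cadherin of endothelium, reached at most 1.21 FPKM in dLAMs and 0.472 FPKM in monocyte-macrophages. Cdh2, the neural cadherin, reached at most 0.177 FPKM in dLAMs and 0.0975 FPKM in monocyte-macrophages.

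Epcam (ENSMUSG00000045394.9, chromosome 17, 87635979 to 87651129, plus strand) had 5.86, 4.7 and 7.5 FPKM in the dLAM libraries, against 0.0716, 0.279 and 0.144 FPKM in the monocyte-macrophage libraries. In the monocyte-macrophage libraries these values stood for an estimated 2.15, 8.61 and 5.38 fragments, close to the limit of what can be counted. In dLAMs an estimated 127 to 205 fragments were behind each value. The means were 6.02 ± 1.41 and 0.165 ± 0.105 FPKM (SD, n = 3 each), a 36.5-fold ratio that carries the counting error of the low group, and a log2 difference of 2.58 (SE 0.18). Epcam stood at 0.224 to 0.342 of the level of Cdh1 in dLAMs and at 0.0325 to 0.183 of it in monocyte-macrophages. The ranges of this ratio did not overlap, but the few Epcam fragments in monocyte-macrophages leave their ratios uncertain.

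Krt18, the type I keratin of simple epithelia (ENSMUSG00000023043.7, chromosome 15, 102028180 to 102032027, plus strand), had 1.69, 1.1 and 1.5 FPKM in dLAMs, against 0.522, 0.305 and 0.21 FPKM in monocyte-macrophages. The log2 difference was 0.85 (SE 0.14), from an estimated 19.5 to 35.9 fragments per dLAM library and 5.13 to 10.3 per monocyte-macrophage library. Epcam and Krt18 reached 1 FPKM only in dLAM libraries.

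Krt8, the type II partner of Krt18 (ENSMUSG00000049382.10, chromosome 15, 101996698 to 102004482, minus strand), did not separate the groups. It was listed at 0, 0.09 and 0.491 FPKM in dLAMs and at 0.121, 0.0394 and 0 FPKM in monocyte-macrophages. The level of Krt8 was 0 to 0.328 of that of Krt18 in dLAMs and 0 to 0.233 of it in monocyte-macrophages, although the 2 chains pair in the filament. Krt19, a type I keratin of ducts and many carcinomas (ENSMUSG00000020911.14, chromosome 11, 100140810 to 100148665, minus strand), was listed at 0, 0 and 0.173 FPKM in dLAMs, the last an estimated 3.98 fragments. It was listed at 0 in each monocyte-macrophage library, where 3 fragments would have given 0.095 to 0.118 FPKM.

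Krt7, a type II keratin of ducts (ENSMUSG00000023039.17, chromosome 15, 101411043 to 101430313, plus strand), was slightly lower in dLAMs, at 0.134, 0.123 and 0.234 FPKM, against 0.263, 0.406 and 0.246 FPKM in monocyte-macrophages. The nearest libraries of the groups differed by less than the spread within either, and the log2 difference was -0.16 (SE 0.07). Exons of Krt7 and Krt8 overlap a gene on the opposite strand (Gm671 by 77 bases and Gm36026 by 101 bases), and no source used here gives the strand setting of the counting.

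The upper values of 2 keratins rested on dLAM library 3. Without it, Krt8 had a log2 difference of -0.01 and Krt19 of 0.00, against 0.16 and 0.08 with it, and 3 instead of 5 of the 7 genes had a higher mean in dLAMs. Some genes outside the 7, looked up after these values were seen, also had their highest dLAM value in that library, and others did not. Krt17, a keratin of basal epithelium, was at 0.131, 0.0524 and 0.571 FPKM in the dLAM libraries and listed at 0 in each monocyte-macrophage library. Cdh17, a cadherin of intestinal epithelium, was at 0.408, 0.423 and 1.12 FPKM in the dLAM libraries and listed at 0 in each monocyte-macrophage library. Epcam was also highest in dLAM library 3, while Cdh1 was not. Other genes of the same lists were highest in dLAM library 1 or 2. Tjp1, a tight junction gene, was at 1.54, 0.672 and 0.771 FPKM in dLAM libraries 1, 2 and 3. Ehf, of the list of epithelial regulators, was at 0.153, 0.685 and 0.422 FPKM.

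Met, the receptor tyrosine kinase for hepatocyte growth factor (ENSMUSG00000009376.15, chromosome 6, 17463800 to 17573980, plus strand), ran the other way. It had 2.64, 1.95 and 2.43 FPKM in dLAMs, against 8.08, 5.15 and 8.05 FPKM in monocyte-macrophages, with no overlap. The means were 2.34 ± 0.356 and 7.09 ± 1.68 FPKM (SD, n = 3 each), a log2 difference of -1.26 (SE 0.21) and a level 3.03-fold higher in monocyte-macrophages. Relative to Cdh1, the level of Met was 0.0926 to 0.12 in dLAMs and 3.38 to 5.8 in monocyte-macrophages.

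The order of levels thus differed between the groups. In dLAMs it ran Cdh1, Epcam, Met, Krt18, with no overlap between neighbours over the libraries, and then Krt8, Krt7 and Krt19, whose ranges overlapped. In monocyte-macrophages it ran Met, Cdh1, Krt18, again with no overlap between neighbours, and then Krt7, Epcam, Krt8 and Krt19. There the ranges of Krt18 and Krt7, of Krt7 and Epcam and of Epcam and Krt8 overlapped.

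The promoters of Epcam, Krt18 and Met are shown because these genes differed between the groups, and because the E-box CAGGTG is a known binding site of the Snail and Zeb repressors of epithelial genes. RefSeq (GRCm38.p6) gave a promoter for 5 of the 7 genes, and CAGGTG was searched on both strands in the 250 bases before the start. Cdh1 and Krt19 had no promoter in this source and were not searched. The sequences are given 5′ to 3′ on the strand of the gene, from the start of the RefSeq window up to the first base of the GENCODE gene, with CAGGTG or its reverse complement CACCTG in capitals. Epcam is the stretch chr17:87635729-87635978 on the plus strand, Krt18 is chr15:102027966-102028179 on the plus strand and Met is chr6:17463707-17463799 on the plus strand.
Epcam: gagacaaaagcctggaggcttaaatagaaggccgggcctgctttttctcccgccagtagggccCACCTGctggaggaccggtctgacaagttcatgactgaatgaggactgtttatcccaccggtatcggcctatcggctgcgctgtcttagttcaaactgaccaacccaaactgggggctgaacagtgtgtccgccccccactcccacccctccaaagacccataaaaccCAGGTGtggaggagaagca
Krt18: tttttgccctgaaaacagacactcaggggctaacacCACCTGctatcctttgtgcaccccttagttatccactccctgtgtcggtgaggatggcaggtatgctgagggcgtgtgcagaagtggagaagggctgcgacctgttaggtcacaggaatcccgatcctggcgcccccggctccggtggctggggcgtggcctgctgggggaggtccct
Met: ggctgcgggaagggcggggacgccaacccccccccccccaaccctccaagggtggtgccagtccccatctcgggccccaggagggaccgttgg
In the full 250 bases Epcam held 2 matches, Krt18, Krt7 and Krt8 held 1 each, and Met held 0. Counts here include bases inside the GENCODE gene that are not shown, so they can exceed those in the stretches above, as for the GC box of Met. For Krt7 the whole window lay inside that gene. Of 32851 mouse promoters 17.2% held the motif. The GC box GGGCGG, searched in the same way, was found 4 times before Krt7, 3 times before Met, 1 time before Epcam and 0 times before Krt8 and Krt18, and was present in 32.7% of promoters. A match is a description of the letters and was not tested as a site.

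Genes of adherens junctions, both nectins and intracellular partners of E-cadherin, moved both ways. Of 9 tested adherens junction genes 7 were higher and 1 was lower in limma, and their median log2 difference was 0.57, against 0.06 over all tested genes. The background for this and each later list count is 19.9% higher and 10.6% lower over all tested genes. Jup, or plakoglobin, rose by 1.18 (SE 0.12, adjusted p = 0.00046), with 2.72 ± 0.258 FPKM in dLAMs and 0.641 ± 0.0921 FPKM in monocyte-macrophages (SD, n = 3 each), passing the filter only through dLAMs. Pvrl1 (nectin-1), a junction immunoglobulin, rose by 1.69 (SE 0.24, adjusted p = 0.0016 in limma), and Pvrl2 (nectin-2) by 0.91.

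The catenin Ctnnd1 (p120), which stabilises cadherins at the membrane, rose by 0.52 and Pvrl4 (nectin-4) by 0.57. Mllt4 (afadin), the anchor of nectins to actin, rose by 0.65. Ctnnb1, or beta-catenin, which links E-cadherin to alpha-catenin, had 19.6 ± 0.531 FPKM in dLAMs and 19.4 ± 0.77 FPKM in monocyte-macrophages (SD, n = 3 each) and did not pass (log2 difference 0.02, SE 0.09, limma adjusted p = 0.91). Vcl, which encodes vinculin, fell by 1.53 to 19.2 ± 0.756 FPKM in dLAMs, against 57.7 ± 9.63 FPKM in monocyte-macrophages (SD, n = 3 each; limma adjusted p = 0.00017). The call of Mllt4 was lost without any 1 of the 3 dLAM libraries (limma adjusted p up to 0.11), and that of Pvrl4 with quantile normalization (adjusted p = 0.11).

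Genes of tight junctions and the partners of Epcam were also mostly higher. Of 8 tested genes 6 were higher and 1 was lower in dLAMs, with a median log2 difference of 1.06. Over all tested genes 19.9% were higher and 10.6% lower, with a median of 0.06. Spint2 and Spint1, membrane inhibitors of serine proteases, rose, Spint2 by 2.16. Spint1 had 11.9, 11.6 and 11.3 FPKM in dLAMs, against 2.1, 2.81 and 1.63 FPKM in monocyte-macrophages (limma adjusted p = 0.00012), so each dLAM library was higher. St14, which encodes matriptase, a protease that Spint1 inhibits and that cleaves Epcam, rose by 0.89 and passed the filter only through dLAMs.

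F11r, the junctional adhesion molecule A, was at 18.3, 18.2 and 17.9 FPKM in dLAMs, against 3.95, 5.91 and 5.58 FPKM in monocyte-macrophages. It rose by 1.65 (SE 0.14, limma adjusted p = 2e-04). Cldn7, the claudin that binds Epcam, reached at most 0.0827 FPKM in dLAMs and 0.109 FPKM in monocyte-macrophages and was not tested. Cldn1 had the highest level of those that did not pass, at 5.18 ± 0.25 FPKM in dLAMs and 3.89 ± 2.77 FPKM in monocyte-macrophages (SD, n = 3 each).

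Desmosome genes and other keratins were largely at or near 0. Of 51 deposited keratin genes, 37 were listed at 0 in each library and 2 reached 1 FPKM in any library, namely Krt18 and Krt80. Krt80, a type II keratin, was the main keratin RNA of both groups, at 21.7, 23.5 and 16.5 FPKM in dLAMs and 37.3, 25.6 and 27.5 FPKM in monocyte-macrophages. It did not pass (log2 difference -0.52, SE 0.18, limma adjusted p = 0.063), and its exons overlap Gm35853 on the opposite strand by 263 bases. Krt18 made up 4.31% to 7.34% of the summed keratin FPKM in dLAMs and 0.742% to 1.36% in monocyte-macrophages.

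Of the 21 genes of desmosomes and other keratins that were in the table, 3 could be tested. Pkp3, a plakophilin of desmosomes, rose by 0.64 and Plec, the cytolinker plectin, fell by 0.66. The call of Pkp3 was lost without dLAM library 1 or 3 or monocyte-macrophage library 1 or 2 (limma adjusted p up to 0.085), and that of Plec without library 1 or 2 of either group (up to 0.066). Dsp (desmoplakin) reached at most 0.139 FPKM in dLAMs and 0.451 FPKM in monocyte-macrophages, and Krt5 and Krt14 were listed at 0 in each library.

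**Figure D2:**
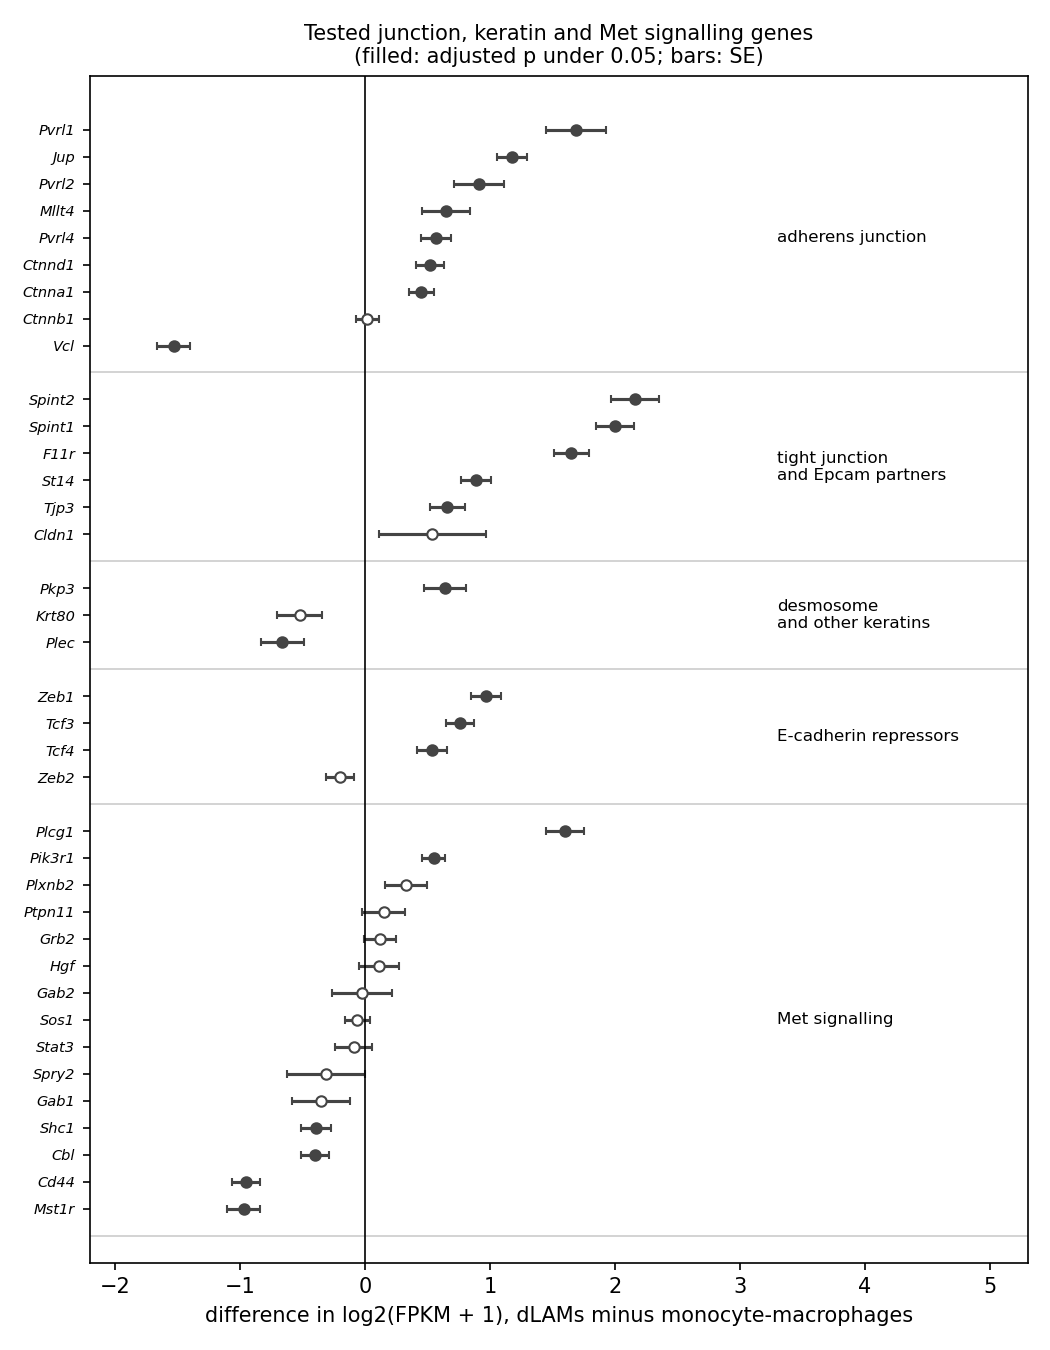
Difference in log2(FPKM + 1), dLAMs minus monocyte-macrophages, for the tested and reported genes of 5 lists; points are limma estimates, bars are SE and filled points have an adjusted p under 0.05. Junction genes such as Spint2 and Pvrl1 lie on the right, Vcl on the left, and genes of Met signalling on both sides.

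Transcription and splicing factors that drive epithelial identity were nearly all below 1 FPKM. Grhl2, Esrp1, Foxa2 and Cdx2 were listed at 0 in each of the 6 libraries, and 2 of 16 genes of this list could be tested. These were Klf4, at 50.5 ± 15.3 FPKM in dLAMs and 68.5 ± 11.9 FPKM in monocyte-macrophages, and Klf5, at 1.94 ± 0.734 FPKM in dLAMs and 6.07 ± 3.54 FPKM in monocyte-macrophages (SD, n = 3 each). Neither passed in limma (adjusted p = 0.18 and 0.056), and 1 of them had an unadjusted p under 0.05. Without monocyte-macrophage library 1, 1 gene of the list was called lower.

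Of 9 repressors of Cdh1, 4 could be tested, and 3 of these were higher in dLAMs (median log2 difference 0.65). The share higher over all tested genes was 19.9%, with a median of 0.06. Zeb1 was at 2.93, 3.28 and 3.5 FPKM in dLAMs, against 1.03, 1.27 and 1.18 FPKM in monocyte-macrophages, a rise of 0.97 (SE 0.12, limma adjusted p = 0.00099). Tcf3 (E2A) rose by 0.76 and Tcf4 by 0.54, and the call of Tcf4 was lost with quantile normalization (adjusted p = 0.089). Zeb2, the most abundant of them, had 26.5 ± 2.89 FPKM in dLAMs and 30.5 ± 1.05 FPKM in monocyte-macrophages (SD, n = 3 each; limma adjusted p = 0.19). Snai1 (Snail), which did not pass the filter, was at 0.584, 0.251 and 0.497 FPKM in dLAMs, against 1.35, 0.746 and 0.689 FPKM in monocyte-macrophages, lower in dLAMs with no overlap.

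Genes around Met showed no common direction. Of 15 tested genes 2 were higher and 4 were lower in dLAMs, with a median log2 difference of -0.06. Over all tested genes 19.9% were higher and 10.6% lower, with a median of 0.06, and nothing is read from these small counts. Hgf, the ligand of Met, was low in both groups, at 1.47 ± 0.433 FPKM in dLAMs and 1.26 ± 0.0458 FPKM in monocyte-macrophages (SD, n = 3 each), and did not pass (limma adjusted p = 0.63). Mst1r, the sister receptor Ron, was at 0.121, 0.0417 and 0.176 FPKM in dLAMs, against 1.15, 1.02 and 1.37 FPKM in monocyte-macrophages. It fell by 0.97 (SE 0.13, limma adjusted p = 0.0014) and passed the filter only through monocyte-macrophages.

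Cd44, a coreceptor of Met, fell by 0.95 to 35.9 ± 3.07 FPKM in dLAMs, against 70 ± 5.73 FPKM in monocyte-macrophages (SD, n = 3 each; limma adjusted p = 6e-04). Plcg1, a phospholipase that binds activated receptors, rose by 1.60 and Pik3r1, a subunit of phosphoinositide 3-kinase, by 0.55. Cbl, the ligase that marks Met for breakdown, and the adaptor Shc1 fell by 0.40 and 0.39. The call of Cbl was lost without any 1 library other than monocyte-macrophage library 3 (limma adjusted p up to 0.097), and that of Shc1 without any 1 library other than dLAM library 3 (up to 0.16). Plxnb2 had the highest level of those that did not pass, at 58.7 ± 5.03 FPKM in dLAMs and 47.3 ± 11.5 FPKM in monocyte-macrophages (SD, n = 3 each).

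Genes of receptors that bind E-cadherin were measured in the same libraries. Itgae, which pairs with Itgb7 to bind E-cadherin, was at 15.9, 17.9 and 14.3 FPKM in dLAMs, against 0.125, 0.228 and 0.213 FPKM in monocyte-macrophages. It rose by 3.84 (SE 0.13, limma adjusted p = 7.1e-06) and passed the filter only through dLAMs. Itgb7 itself had 65.6 ± 6.61 FPKM in dLAMs and 94.1 ± 20.4 FPKM in monocyte-macrophages (SD, n = 3 each) and did not pass (limma adjusted p = 0.058). Without monocyte-macrophage library 2, 1 gene of this list was called lower. Klrg1, a receptor of natural killer and T cells that also binds E-cadherin, was at 1.77, 2.47 and 0.683 FPKM in dLAMs and listed at 0 in each monocyte-macrophage library.

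Genes that interleukin-4 induces in mouse macrophages moved both ways. Of 13 tested, 9 were higher and 2 were lower in dLAMs, with a median log2 difference of 1.30. The shares over all tested genes were 19.9% higher and 10.6% lower, with a median of 0.06. Mgl2, a lectin, was at 38, 44.6 and 26.2 FPKM in dLAMs, against 1.24, 0.198 and 0.698 FPKM in monocyte-macrophages. Pdcd1lg2, the checkpoint ligand PD-L2, which passed the filter only through dLAMs, rose by 2.39, the chemokine Ccl17 by 5.74 and the mannose receptor Mrc1 by 3.79, while Chil3 fell by 3.50 and F13a1 by 2.35. Retnla, a defining gene of this response, was at 0.678, 1.49 and 0.673 FPKM in dLAMs and listed at 0 in each monocyte-macrophage library. Tgm2 did not pass, at 68.9 ± 13.5 FPKM in dLAMs and 73 ± 15.8 FPKM in monocyte-macrophages (SD, n = 3 each).

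Markers of several other cell types were also higher in dLAMs, while those of neutrophils were mostly lower. In bulk samples more cells of a type and more RNA per cell cannot be told apart. The 12 markers of migratory dendritic cells summed to 271, 367 and 304 FPKM in dLAMs, against 47.6, 66.4 and 44.5 FPKM in monocyte-macrophages. Of 11 tested 10 were higher, 5 of which passed the filter only through dLAMs. For each marker list the background over all tested genes is 19.9% higher and 10.6% lower. The 12 markers of conventional dendritic and Langerhans cells summed to 180, 223 and 164 FPKM in dLAMs, against 50.7, 49.2 and 47.8 FPKM in monocyte-macrophages. Here too 10 of 11 tested were higher, and 5 of the 10 passed the filter only through dLAMs. Cd207, or langerin, which defines Langerhans cells, was at 0.444, 0.214 and 0.106 FPKM in dLAMs and listed at 0 in each monocyte-macrophage library.

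The 16 T and natural killer cell markers summed to 213 to 268 FPKM in dLAMs and 8.25 to 35.3 FPKM in monocyte-macrophages, and all 15 tested were higher in dLAMs, of which Ncr1 and Cd8a passed the filter only through dLAMs. The 9 B and plasma cell markers summed to 24.6 to 36.5 FPKM in dLAMs and 1.68 to 4.75 FPKM in monocyte-macrophages. For the 12 markers of mast cells, basophils and eosinophils they were 56.3 to 101 FPKM in dLAMs and 7.74 to 17.6 FPKM in monocyte-macrophages. The 12 neutrophil markers summed to 1304 to 1687 FPKM in dLAMs and 2116 to 12256 FPKM in monocyte-macrophages, and limma called 7 of them lower and none higher in dLAMs. Which of these cells carried Cdh1 and Epcam was not tested. Within the dLAMs, library 2 had the highest dendritic sums and the lowest Epcam, with Cdh1 alike in all 3 libraries. Library 2 also had the lowest T and natural killer cell sum (268, 213 and 240 FPKM in libraries 1, 2 and 3). The same held for the B and plasma cell sum (36.5, 24.6 and 25.3 FPKM), while the mast cell list was lowest in library 3. How these orders relate to Cdh1 and Epcam was not tested.

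Some genes of lung epithelium were listed at 0, while others of that list and some genes of other non-blood cells were measured. The sort was gated on CD45, and RNA of CD45-negative cells in the sorted samples was not tested. The injected line itself was not among the libraries, so its levels of these genes are not known here. Of 12 lung epithelium genes 4, namely Sftpa1, Sftpc, Nkx2-1 and Cldn18, were listed at 0 in each library, and 3 reached 1 FPKM in any library. Muc1 was at 0.628, 0.363 and 0.389 FPKM in dLAMs, against 0.136, 0.608 and 0.131 FPKM in monocyte-macrophages. Sftpb reached at most 0.0657 FPKM in dLAMs and 0.0461 FPKM in monocyte-macrophages. Scgb1a1 was listed at 0 in dLAMs and reached 1.05 FPKM in monocyte-macrophages. That list summed to 44.4 to 48.3 FPKM in dLAMs and 65.3 to 81.6 FPKM in monocyte-macrophages, of which Napsa, a protease, gave 43.3 to 47.1 FPKM in dLAMs and 62.4 to 81.1 FPKM in monocyte-macrophages. Among 20 genes of adherent non-blood cells 9 reached 1 FPKM in a library, while Cav1 reached at most 0.164 FPKM in dLAMs and 0.0928 FPKM in monocyte-macrophages. That list summed to 726 to 1178 FPKM in dLAMs and 1745 to 2320 FPKM in monocyte-macrophages, mostly from Thbs1 and Fn1. The sum therefore does not show the direction of the other genes. The median level of the list was 0.565 FPKM in dLAMs and 0.18 FPKM in monocyte-macrophages. Of 6 tested genes limma called 3 higher (Sparc, Cyr61 and Lamc1) and 2 lower (Thbs1 and Fn1) in dLAMs. Cyr61 passed the filter only through dLAMs. Sparc, a matrix protein, rose by 2.67, at 13.7, 4.48 and 4.17 FPKM in dLAMs, against 0.231, 0.129 and 0.159 FPKM in monocyte-macrophages, and passed the filter only through dLAMs.

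Markers of the brain's borders were low, with higher sums in dLAMs, and none of the choroid plexus list could be tested. The 12 choroid plexus markers summed to 2.25, 9.55 and 2.91 FPKM in dLAMs, against 0.4, 0.304 and 0.916 FPKM in monocyte-macrophages. Ttr, the main secreted protein of that epithelium, was at 0.776, 6.47 and 0.925 FPKM in dLAMs and listed at 0 in each monocyte-macrophage library. The 12 markers of meningeal fibroblasts and arachnoid summed to 10.5, 6.5 and 6.41 FPKM in dLAMs, against 0.991, 1.48 and 0.463 FPKM in monocyte-macrophages. The 2 that could be tested, Ptgds and Col3a1, were called higher in dLAMs, by 1.67 and 0.96. Both passed the filter only through dLAMs. Ptgds was at 3.8, 1.59 and 1.85 FPKM in dLAMs, against 0.11, 0 and 0 FPKM in monocyte-macrophages. Dcn reached 1.65 FPKM and Cldn11, a claudin of the arachnoid barrier, 0.217 FPKM in dLAMs, against 0.175 and 0.0391 FPKM in monocyte-macrophages. The part of these cells in the level of Cdh1, Epcam or Krt18 was not tested.

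**Figure D3:**
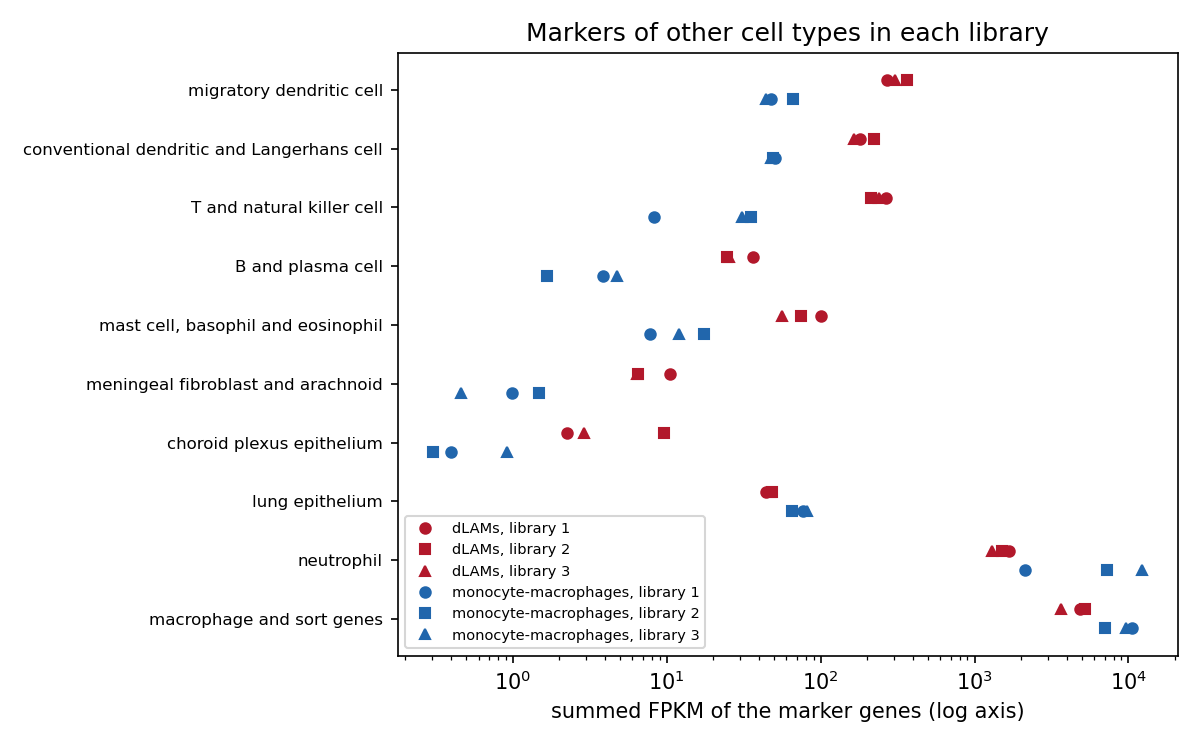
Summed FPKM of marker genes of other cell types in each library on a log axis, with dLAMs in red and monocyte-macrophages in blue. Sums of dendritic, T, B and mast cell markers and of meningeal and choroid plexus markers are higher in the 3 dLAM libraries, and those of lung epithelium, neutrophils and the macrophage and sort genes are lower. The lung epithelium sum is mostly the 1 gene Napsa. The sum of macrophage and sort genes is mostly Lyz2, and 4 of its 10 genes were called higher and 2 lower.

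The genes with the most similar profiles were found by the root mean square difference between log2(FPKM + 1) values over the 6 libraries, each gene centred on its own mean. For Cdh1 they were Cd72 (0.109), Pmepa1 (0.115) and Pald1 (0.126), where the median over all tested genes was 1.52. Cd72, a receptor of B cells and myeloid cells, was at 9.57, 11.1 and 10.1 FPKM in dLAMs, against 0.421, 0.277 and 0.0732 FPKM in monocyte-macrophages. For Epcam they were Dst (0.15), Traj1 (0.153), a joining segment of the T cell receptor alpha locus, and Rnf180 (0.173), where the median was 1.28.

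For Krt18 they were Mthfd1 (0.0457), Mfge8 (0.0633) and Tsr2 (0.0722), against a median of 0.473. For Met they were the histone gene Hist1h1c (0.0786), Gpsm2 (0.098) and Lilra6 (0.106), against a median of 0.725. Gpsm2, a protein that orients the mitotic spindle, was at 4.45, 4.09 and 4.65 FPKM in dLAMs and 12.3, 9.58 and 14.5 FPKM in monocyte-macrophages. These distances follow the difference between the groups and the 6 shared libraries.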

How the data were processed

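Bulk RNA of sorted macrophages was measured in 6 libraries, 3 per group, with groups and replicates read from the titles. The authors deposited FPKM in 1 table with 1 column per library; per the submitters' processing notes, FastQC, HISAT2 and featureCounts were used with mm10. Their versions, annotation, gene lengths, strand and multi-mapping settings are unknown, being not given in the sources used here. Genes with FPKM of at least 1 in at least 3 libraries were fitted as log2(FPKM + 1) in limma 3.58.1 (R 4.3.3) with 1 group term, a mean-variance trend and Benjamini-Hochberg adjustment over all tested genes, and were called at an adjusted p under 0.05. Fragments per library were estimated from the smallest steps of FPKM and GENCODE M21 exon lengths of 32672 genes; they are estimates and show counting error only.

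The 7 genes and the 8 gene lists and 11 marker lists were chosen with earlier results of these data known. Of the 122 genes of the gene lists and 139 of the marker lists, 260 in all were in the table, 10 of them under an older symbol. From each gene list up to 6 called genes and the highest expressed gene not called were named, and others were added after their values were seen; some called genes of the tight junction list are not reported here. The 3 nearest profiles were taken for each of the 7 genes that passed the filter, which were Cdh1, Epcam, Krt18 and Met. Pseudocount, filter, scaling, replicate block, a term for Ddx3y and leaving out each library were tried as alternatives. Other steps used pandas 2.3.3 and numpy 2.4.6 (Python 3.11.15), and figures matplotlib 3.10.9.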

Additional observations from a re-analysis of the deposited data

How the results depend on the processing

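Of the 38 called genes in the gene lists, none changed sign under the 14 alternatives (13 for those that a filter of 5 FPKM removes), and 9 lost their call under at least 1: Mllt4, Shc1, Cbl, Ccl24, Pkp3, Plec, Ctnna1, Pvrl4 and Tcf4. With a filter of 5 FPKM, 6579 genes could be tested and 1247 were higher; there 3 adherens junction genes, 1 E-cadherin repressor and 0 desmosome and keratin genes were higher and 0 tight junction genes were lower, fewer genes being tested. With no filter 2 E-cadherin counter-receptors were higher. On the TPM scale 2 Met signalling genes and 0 desmosome and keratin genes were lower. With median-of-ratios scaling 1 counter-receptor and 1 epithelial regulator were lower, and with quantile normalization 1 regulator was lower and 0 desmosome and keratin genes were higher; the cause was not tested. With log2 Ddx3y, a Y-linked gene, as a term, 1 counter-receptor and 2 desmosome and keratin genes were lower.

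The replicate numbers did not pair the libraries (correlations of same-numbered deviations 0.189, -0.147 and -0.089, and not every library correlated best with its own number); with the replicate block 1860 genes were higher and 999 lower, 2 Met signalling genes were lower and 0 desmosome and keratin genes were lower. Without single libraries the counts ranged over 1590 to 2096 genes higher and 780 to 1220 lower (780 without dLAM library 2), 2 to 3 Met signalling genes lower, 0 to 1 desmosome and keratin genes higher and 0 to 1 lower, 0 to 1 counter-receptors lower, 0 to 1 epithelial regulators lower, and 3 to 5 of the 7 described genes higher in mean. The log2 difference of Cdh1 lay between 2.95 and 3.62, of Epcam between 2.43 and 4.58, of Krt18 between 0.62 and 1.82 and of Met between -1.54 and -1.17; the extremes of Cdh1, Epcam and Krt18 on the high side and of Met on the low side came with a pseudocount of 0.1. Depth limits Krt8 and Krt19 in all libraries and Epcam in monocyte-macrophages.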
